A study of Saccharomyces cerevisiae with 57 samples.

Results

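The promoters of 8 budding yeast genes that encode translation elongation factors were examined in chromatin endogenous cleavage sequencing (ChEC-seq) libraries. Each promoter was taken as the 1000 bp upstream of the start codon in the sacCer3 annotation, and these 8 windows are among 5977 such windows before nuclear protein-coding genes. The rule takes the genes by name and uses no measured value, but the set was chosen with earlier results of these data known. In ChEC-seq a transcription factor (TF) is fused to micrococcal nuclease (MNase), and calcium given to digitonin-treated cells lets the tethered nuclease cut DNA near the places the factor occupies. Of the 57 libraries, 3 each come from 30 s of digestion in strains with ABF1-3FLAG-MNase-kanMX6, RAP1-3FLAG-MNase-kanMX6 or REB1-3FLAG-MNase-kanMX6 at the factor's own locus. The control strain, ura3::P_REB1-3FLAG-MNase-NLS-URA3, expresses unfused nuclear MNase ("free MNase") from the REB1 promoter, with 1 library at 30 s. All strains derive from W1588-4C, a W303 congenic strain that is RAD5+, grown in rich medium (YPD). The other libraries are single time points from 10 s to 20 min, libraries without added calcium, short-linker fusions of Abf1 and Reb1, Reb1 with MNase at its N terminus expressed from a plasmid (pRS413-P_REB1-MNASE-3FLAG-REB1), and 1 Abf1 MNase-X-ChIP library. In the plasmid strain the chromosomal REB1 was deleted (reb1Δ::kanMX6). The paper's strain list also holds ABF1-3FLAG-kanMX4, which has no MNase fusion. In the ChEC-seq strains the nuclease is always expressed, also before calcium is added. The labels do not say that the replicates came from separate cultures, so p-values measure the spread between these libraries, which may be technical.

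Elongation factors carry the ribosome through each codon of an mRNA and are among the most abundant proteins of a growing yeast cell. TEF1 and TEF2 encode the same protein, eEF1A, which delivers aminoacyl-tRNA. EFB1 (eEF1B alpha) recharges eEF1A with GTP, and TEF4 is a gamma subunit of the same exchange complex. YEF3 encodes eEF3, an ATPase of fungal ribosomes, EFT1 and EFT2 both encode eEF2, the translocase, and HYP2 encodes eIF5A, which helps ribosomes through stretches that stall. Abf1, Rap1 and Reb1 are general regulatory factors that bind promoters and keep them free of nucleosomes, and Rap1 is best known for its role at ribosomal protein genes.

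The member windows held few repeated sequences. Between 98.2% (EFB1) and 100.0% of the 25-base sequences in a window were found once in the genome. The 8 promoters differ in their surroundings. TEF2 and EFT2 have open intergenic DNA over the whole 1000 bp, with the divergent genes TKL2 and ATO3 beginning 1234 bp and 1199 bp upstream of the start codon. The EFB1 window runs into SSA1 and the TEF4 window into RRP14, both divergent, so their intergenic stretches of 742 bp and 561 bp serve a pair of genes. TEF1, YEF3 and EFT1 lie behind MRL1, RCK2 and VPS17 in the same orientation, with 579 bp, 695 bp and 267 bp between the genes. HYP2 has only 130 bp before the divergent gene UTR5, and the far end of its window lies between UTR5 and ANP1.

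Motif matches were searched on both strands as ACCCNNACA for Rap1, TTACCCG for Reb1, and TCA and ACG with 6 bases of any kind between for Abf1. The Rap1 motif was in 2 of the 8 windows (9.67% of all 5977 windows hold it), the Reb1 motif in 3 (13.5%) and the Abf1 motif in 4 (36.6%). The EFT2 and HYP2 windows held none of these letter patterns. Only exact matches were counted, so sites that depart from a pattern at any fixed base were not found. The following stretches of the reference genome (sacCer3, plus strand, 5′ to 3′, RefSeq R64; the strain used is not the reference strain) are shown because the match, which stands in capitals, had at least 20 of its own factor's ends per 1000000 nuclear ends inside it or within 25 bp.
TEF2 far Rap1 match (chrII:476747-476805): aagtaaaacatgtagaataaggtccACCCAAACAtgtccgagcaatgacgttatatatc
TEF2 near Rap1 match (chrII:477211-477269): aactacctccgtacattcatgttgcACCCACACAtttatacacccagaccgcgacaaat
TEF4 Rap1 match, minus strand (chrXI:282477-282535): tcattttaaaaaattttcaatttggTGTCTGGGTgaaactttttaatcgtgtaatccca
EFB1 Abf1 match, minus strand (chrI:141802-141863): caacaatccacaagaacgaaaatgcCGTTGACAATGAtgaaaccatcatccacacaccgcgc
YEF3 Abf1 match (chrXII:636493-636554): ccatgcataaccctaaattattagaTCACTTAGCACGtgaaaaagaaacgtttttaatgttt
TEF1 Reb1 match (chrXVI:700291-700347): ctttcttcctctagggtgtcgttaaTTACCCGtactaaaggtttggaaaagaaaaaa
YEF3 Reb1 match (chrXII:636237-636293): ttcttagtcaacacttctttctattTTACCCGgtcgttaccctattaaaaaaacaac
EFT1 Reb1 match, minus strand (chrXV:574875-574931): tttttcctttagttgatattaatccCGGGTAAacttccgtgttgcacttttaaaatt

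At other members the most cut base lay away from any of these matches. These stretches are shown with that base in capitals, as the mean of the 3 replicates at 30 s gives it.
TEF1 in Rap1-MNase (chrXVI:700159-700209): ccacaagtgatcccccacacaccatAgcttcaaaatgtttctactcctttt
EFB1 in Rap1-MNase (chrI:141847-141897): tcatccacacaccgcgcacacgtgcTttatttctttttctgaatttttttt
HYP2 in Rap1-MNase (chrV:85264-85314): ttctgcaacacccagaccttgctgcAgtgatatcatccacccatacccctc
EFT2 in Abf1-MNase (chrIV:1242706-1242756): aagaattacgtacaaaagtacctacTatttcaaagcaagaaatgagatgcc
TEF4 in Reb1-MNase (chrXI:282705-282755): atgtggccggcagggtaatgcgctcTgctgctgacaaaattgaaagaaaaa
HYP2 in Reb1-MNase (chrV:84783-84833): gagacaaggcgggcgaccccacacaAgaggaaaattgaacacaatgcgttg

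Levels are given as EPM, the number of fragment ends in a window per 1000000 nuclear ends outside the ribosomal DNA of the same library. The 10 libraries of the 30 s comparison held 4451700 to 8634805 such ends, and a member window held between 41 ends (EFT1, Rap1 replicate 1) and 23779 ends (TEF2, Rap1 replicate 3). The level of the median window differed between strains. It was 62.2 to 78.6 EPM in the Abf1 libraries, 29.3 to 32.9 in Rap1, 36.8 to 55.2 in Reb1 and 79.3 in free MNase, so relative to free MNase the median log2 difference was -0.15 in Abf1-MNase, -1.34 in Rap1-MNase and -0.76 in Reb1-MNase. Member differences are therefore also given relative to that median.

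Most members were cleaved above the free MNase control, and the leading factor differed from gene to gene. In the Rap1-MNase libraries 7 of the 8 members were higher than in free MNase (limma, adjusted p under 0.05), where 18.1% of all tested windows were higher, and EFT1 was lower, as were 64.8% of windows. In the Reb1-MNase libraries 7 members were higher against 27.2% of windows, none was lower against 52.4%, and EFB1 did not pass the test. In the Abf1-MNase libraries 5 members were higher against 36.0% of windows and EFT1 was lower against 39.4%, while TEF1 and TEF4 did not pass. When each library was also scaled to its median window, higher calls went from 21.9% to 53.0% of all calls in Rap1-MNase and from 34.2% to 55.2% in Reb1-MNase, and the members called higher became 7 for Rap1, 8 for Reb1 and 6 for Abf1. The median log2 difference from free MNase over the 8 members was highest in Rap1-MNase (3.41), followed by Abf1-MNase (2.38) and Reb1-MNase (1.81). Relative to the median window these medians were 4.75, 2.54 and 2.57, with Abf1-MNase and Reb1-MNase nearly equal. With no free MNase replicate at 30 s, its single library is assumed to vary like the TF libraries.

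**Figure D1:**
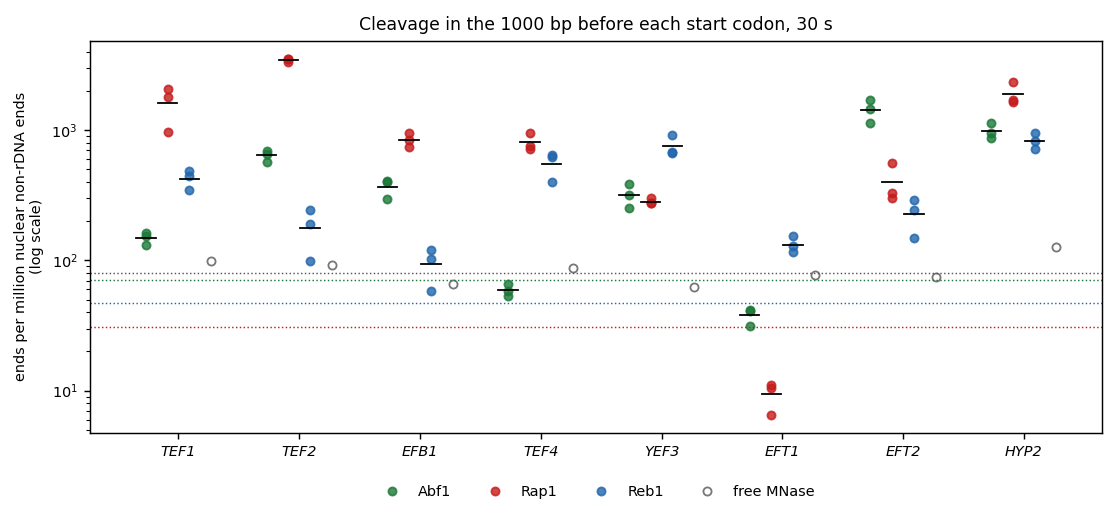
EPM in the 1000 bp before each start codon at 30 s (log scale), with 1 point per library, black bars for means of 3 replicates and dotted lines for the median of all windows in each strain. TEF2 in Rap1-MNase stands highest, at 3328 to 3540 EPM, and EFT1 in Rap1-MNase lowest, at 6.54 to 11.2 EPM.

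Direct comparisons between the TFs split the members. Rap1 exceeded Abf1 at TEF1, TEF2, EFB1, TEF4 and HYP2, which is 5 members where 15.8% of all windows were higher, and it was below Abf1 at EFT1 and EFT2, where 63.8% of windows were lower. Rap1 exceeded Reb1 at 6 members (22.0% of windows) and was below Reb1 at YEF3 and EFT1 (51.8% of windows). Abf1 exceeded Reb1 at TEF2, EFB1 and EFT2 (44.6% of windows) and was below Reb1 at TEF1, TEF4, YEF3 and EFT1 (25.2% of windows). Scaling to the median window turned the split of all calls between Rap1 and Abf1 from 941 higher and 3808 lower to 2481 higher and 1815 lower. The same scaling turned it from 1311 and 3090 to 2116 and 2053 between Rap1 and Reb1, and from 2662 and 1501 to 1860 and 2492 between Abf1 and Reb1. YEF3 did not pass the test between Rap1 and Abf1 (log2 difference -0.16, 95% interval -0.60 to 0.28) but was higher in Rap1 after median scaling (1.01, limma adjusted p = 0.0009). HYP2 did not pass between Abf1 and Reb1 (0.24, interval -0.19 to 0.67), but it was higher in Abf1 with a 500-bp window (1.81, limma adjusted p = 1.7e-07), over the intergenic part (0.67, adjusted p = 0.031), with all mapped ends (0.55, adjusted p = 0.025) and with run code as covariate (0.41, adjusted p = 0.029). The lower call of YEF3 in Abf1 than in Reb1 (-1.23) was lost with a 500-bp window (-0.47, limma adjusted p = 0.069).

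**Figure D2:**
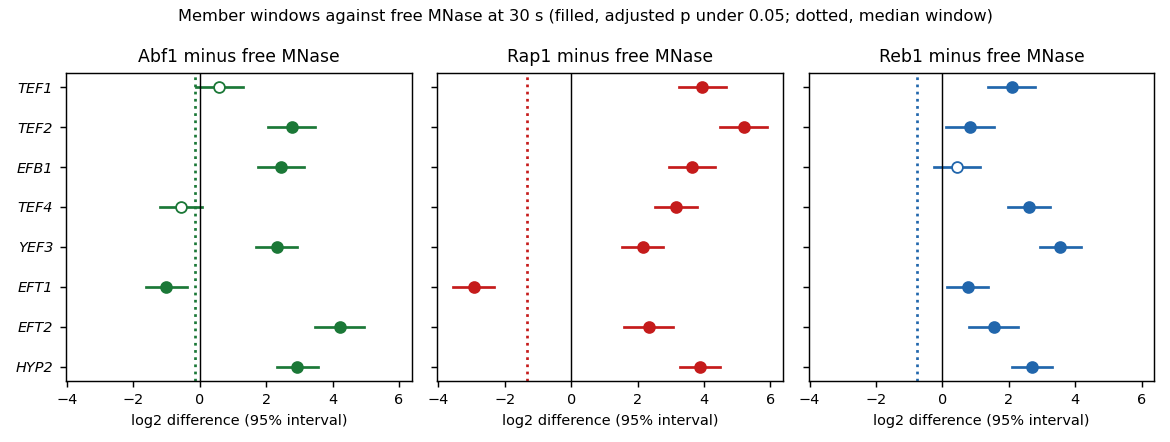
Log2 difference of each member window from free MNase at 30 s for Abf1-, Rap1- and Reb1-MNase, with 95% intervals from limma, filled points at an adjusted p under 0.05 and a dotted line at the median of all windows. EFT1 is the only member below 0 in Rap1-MNase, at -2.94, and the highest value is 5.20, for TEF2.

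TEF2 had the highest Rap1-MNase level of the 8 members, and the Rap1 replicates of TEF1, the other eEF1A gene, overlapped those of HYP2, the next highest. TEF2 gave 3540, 3482 and 3328 EPM in the 3 Rap1 replicates, above at least 99.6% of all windows in each library. The same window gave 650.0, 570.2 and 695.5 EPM in Abf1-MNase, 99.5, 189 and 242 EPM in Reb1-MNase and 92.7 EPM in free MNase. The Rap1 replicates lay close together and did not overlap any other group. The Reb1 difference from free MNase (0.83, limma adjusted p = 0.03) was lost with a 500-bp window (0.54, adjusted p = 0.2), without Reb1 replicate 2 (0.74, adjusted p = 0.08) and without Reb1 replicate 3 (0.56, adjusted p = 0.13). The log2 difference between Rap1 and free MNase was 5.20 ± 0.35 (SE; limma adjusted p = 1.1e-12), the 10th highest of 5967 tested windows and 6.54 above the median window. TEF1 gave 965, 2083 and 1804 EPM in Rap1-MNase, a wider spread, with replicate 1 carrying another run code than replicates 2 and 3. What a run code marks, such as a sequencing run or a preparation day, is not stated in the labels. Its Reb1 values of 345, 444 and 481 EPM lay between those of Rap1 and those of Abf1 (132, 153 and 163 EPM), and free MNase gave 98.7 EPM. TEF1 was thus the eEF1A gene with the higher Reb1 signal and TEF2 the one with the higher Abf1 signal in every replicate. The Abf1 difference of TEF1 from free MNase, 0.59 ± 0.34, did not pass the test (limma adjusted p = 0.12), but it did under 6 alternatives, with values from 0.72 (distinct fragments) to 1.57 (intergenic part).

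Within TEF2 the Rap1-MNase ends formed separate clusters. The single most cut base was 905 bp upstream in replicate 1 and 405 bp upstream in replicates 2 and 3. These bases lie 6 bp and 22 bp from the edge of the far and the near Rap1 match printed above. Between the near match and the base 405 bp upstream lies ACCCAGACC, which differs at 1 base from the Rap1 pattern. Within 25 bp of the far match, 899 to 891 bp upstream, Rap1-MNase gave a mean of 592 EPM, against 46.8 in Abf1-MNase, 14.7 in Reb1-MNase and 4.39 in free MNase. Around the near match, 435 to 427 bp upstream, the means were 326, 13.8, 0.872 and 7.18 EPM. The far match lies nearer to the divergent gene TKL2 than to TEF2. In TEF1, Rap1-MNase cut most at 410 bp upstream in all 3 replicates, where 96.3, 297 and 218 EPM fell on 1 base. Reb1-MNase cut TEF1 most at 292 bp upstream, 14 bp before the Reb1 match, with 89.5 EPM there on average. That base was also the most cut in Abf1-MNase, at 13.1 EPM, and in free MNase at 20 min, at 6.58 EPM, and it ranked 9 of 1000 in Rap1-MNase. Rap1-MNase ends were also frequent around this Reb1 match, with 214 EPM within 25 bp against 187 EPM for Reb1-MNase.

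**Figure D3:**
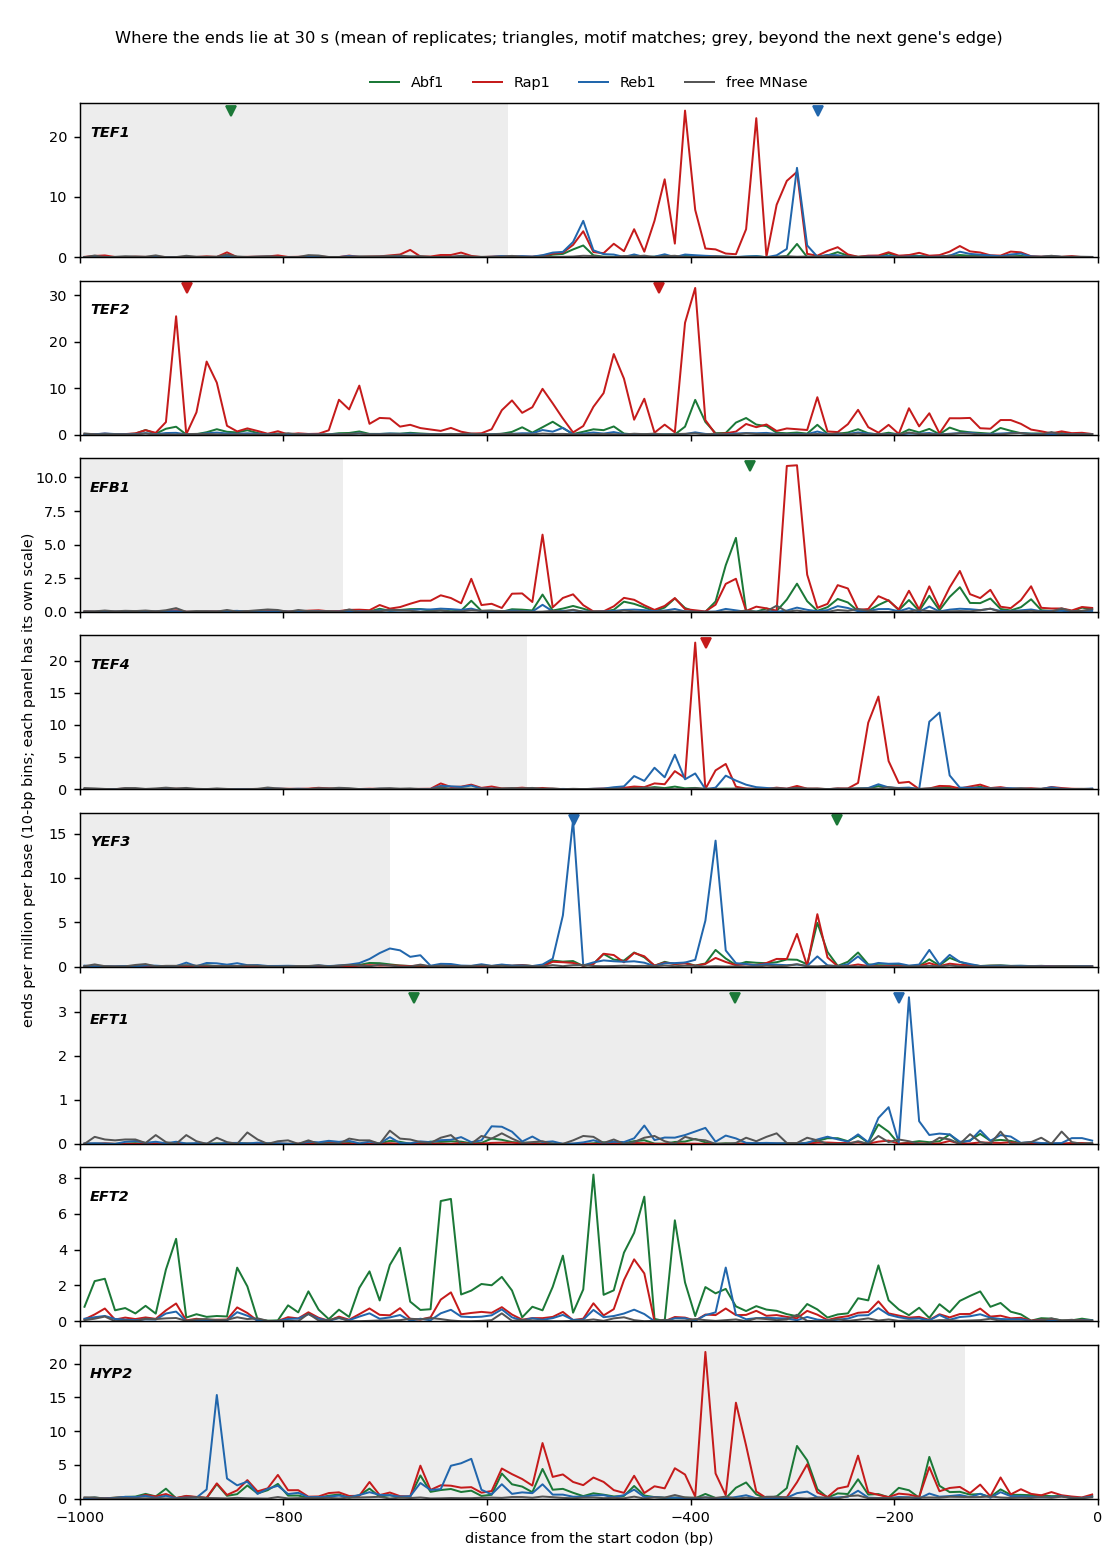
Mean EPM per base in 10-bp bins along the 1000 bp before each start codon at 30 s, with triangles at motif matches in the colour of their factor and grey where the window runs past the edge of the next gene. TEF2 shows Rap1-MNase peaks to the sides of each triangle and few ends at the matches themselves. EFT1 shows a Reb1-MNase peak beside its match alone, and the main HYP2 peaks lie in the grey part.

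The exchange factor genes EFB1 and TEF4 were both highest in Rap1-MNase and differed in the second factor. EFB1 gave 947, 840 and 740 EPM in Rap1-MNase, 399.9, 296 and 409 EPM in Abf1-MNase, 58.6, 103 and 121 EPM in Reb1-MNase and 66.0 EPM in free MNase. Its Rap1 and Abf1 replicates lay above the free MNase value without overlap of each other, while the Reb1 replicates stood on both sides of it (log2 difference 0.44 ± 0.34, limma adjusted p = 0.23, 1.21 with an adjusted p of 0.0012 after median scaling, and 0.75 with an adjusted p of 0.0066 without Reb1 replicate 1). TEF4 gave 943, 721 and 748 EPM in Rap1-MNase and 402, 640 and 618 EPM in Reb1-MNase. Its Abf1 values of 58.5, 65.5 and 53.4 EPM all lay under the 87.7 EPM of free MNase, with a log2 difference of -0.57 ± 0.31 that did not pass the test (limma adjusted p = 0.097, and 0.019 without Reb1 replicate 1). The Rap1 and Reb1 replicates of TEF4 did not overlap, but the difference of 0.56 (limma adjusted p = 0.023) no longer passed without Rap1 replicate 1 (0.44, adjusted p = 0.096) or without Reb1 replicate 1 (0.34, adjusted p = 0.068).

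The most cut bases differed between the factors in these promoters. In EFB1, Abf1-MNase cut most at 357, 357 and 361 bp upstream, next to the Abf1 match at 347 to 336 bp, and Rap1-MNase cut most at 302 bp upstream in all 3 replicates. Of the Abf1-MNase ends in the EFB1 window, 26.6% fell within 25 bp of the Abf1 match, where free MNase gave 6.18 EPM against 99.0 EPM in Abf1-MNase. In TEF4 the Rap1-MNase ends formed a pair of sharp peaks. The base 395 bp upstream, 6 bp from the Rap1 match, held 114 EPM on average and the base 216 bp upstream held 97.4 EPM. The latter was also the most cut TEF4 base in Abf1-MNase, at 2.12 EPM, and in free MNase at 20 min, at 1.62 EPM. Reb1-MNase cut TEF4 at 155 bp upstream in replicate 1 and 161 bp in replicates 2 and 3, and 45.4% of its ends there fell within 51 bp. No exact match to the Reb1 letter pattern lies in the TEF4 window. The stretch printed above holds AGGGTAA, which differs at 1 base from the minus-strand form of the pattern. With RRP14 on the other side of the same intergenic stretch, these ends cannot be assigned to 1 of the 2 genes. Other printed stretches also hold forms that differ at 1 base from the Rap1 pattern. Among them are ACCCAGACC and ACCCATACC at HYP2, CCCCACACA at TEF1 and ATCCACACA at EFB1, each in the Rap1-MNase stretch. CCCCACACA also stands in the Reb1-MNase stretch of HYP2. Such forms were not counted over all windows.

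YEF3, the eEF3 gene, was the member with the strongest Reb1-MNase signal relative to free MNase. It gave 913, 673 and 664 EPM in Reb1-MNase, 320, 253 and 388 EPM in Abf1-MNase, 274, 302 and 274 EPM in Rap1-MNase and 62.4 EPM in free MNase. The Reb1 replicates stood above all others, and those of Abf1 and Rap1 overlapped. The Reb1 difference from free MNase was 3.55 ± 0.30 on the log2 scale (limma adjusted p = 1.3e-10), or 11.7-fold. Reb1-MNase cut at a pair of places, 378 bp upstream in replicate 1 and 515 and 516 bp upstream in replicates 2 and 3. The latter position lies inside the Reb1 match itself, 518 to 512 bp upstream, and replicate 1 had 104 EPM at the base 516 bp upstream. The base 274 bp upstream, 12 bp from the Abf1 match, was the most cut in all 3 Abf1 and all 3 Rap1 replicates, with 34.9 and 44.2 EPM on average. It had no end in free MNase at 30 s, as was the case for most bases of this window.

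The bases of a match were cut less than those around it at 7 of the 8 matches printed above, which is a description, since these matches were taken for the ends near them. In Rap1-MNase the near TEF2 match averaged 0.068 EPM per base, against 6.50 EPM per base in the 25 bp on each side. The far TEF2 match averaged 0.0585 against 11.8, and the TEF4 match 0.0237 against 6.66. For Abf1-MNase the values were 0.0052 against 1.98 at EFB1 and 0.106 against 1.83 at YEF3. For Reb1-MNase they were 0.0712 against 3.74 at TEF1 and 0.0379 against 1.08 at EFT1. The Reb1 match of YEF3 was the exception, with 22.1 EPM per base inside and 1.70 beside it. The other 3 Abf1 matches, 1 in TEF1 and 2 in EFT1, had no more than 2.78 EPM of Abf1-MNase ends within 25 bp, under the free MNase values of 3.59 to 8.37 EPM. Inside and beside them Abf1-MNase gave 0.123 against 0.0261 EPM per base at TEF1, 0.0152 against 0.0122 at the EFT1 match 362 bp upstream and 0.0032 against 0.0449 at the EFT1 match 677 bp upstream. The values inside were thus higher at 2 of these 3 matches, each from few ends.

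**Figure D4:**
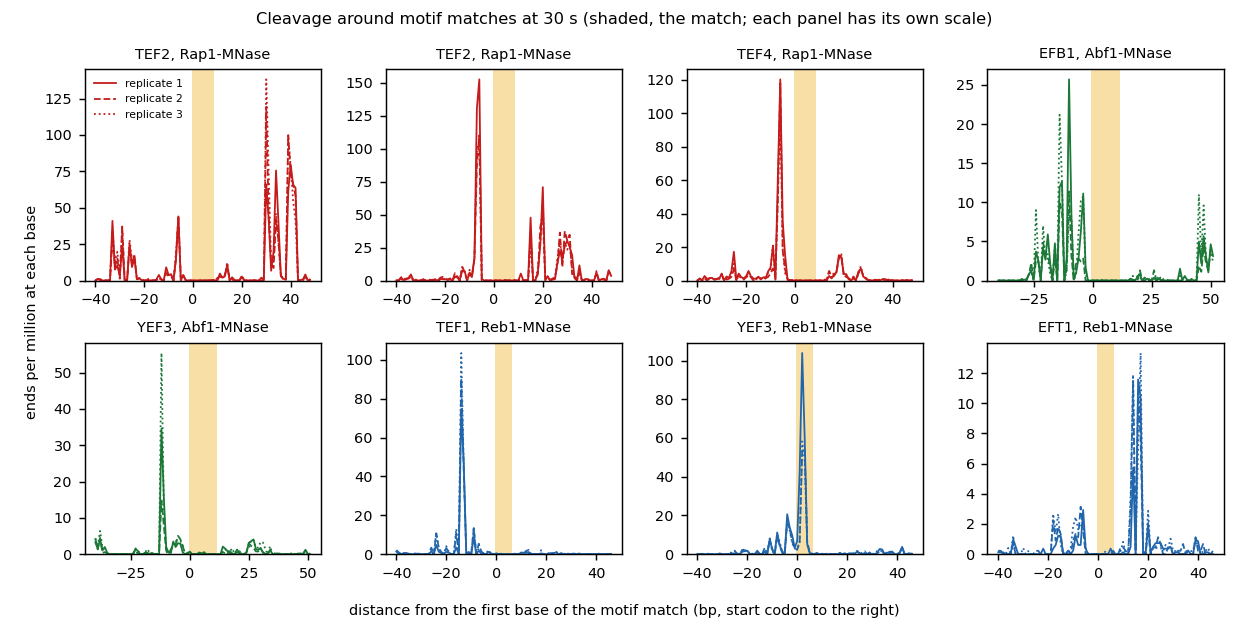
EPM at each base around the 8 motif matches with at least 20 EPM of their own factor's ends within 25 bp, in the 3 replicates at 30 s (line styles), with the match shaded and the start codon to the right. The shaded bases are nearly without ends except at the Reb1 match of YEF3, and the replicates cut the same bases.

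The eEF2 genes EFT1 and EFT2 encode the same protein and stood at opposite ends of the Abf1-MNase levels. EFT2 was the member most cleaved by Abf1-MNase, with 1702, 1126 and 1445 EPM, above at least 99.0% of windows in each replicate, and 559, 331 and 300.3 EPM in Rap1-MNase, 149, 245 and 292 EPM in Reb1-MNase and 75.0 EPM in free MNase. Its Abf1 difference from free MNase, 4.21 ± 0.36 (limma adjusted p = 2.5e-10), ranked 22 among the tested windows. EFT1 gave 31.6, 41.1 and 41.4 EPM in Abf1-MNase and 6.54, 11.2 and 10.5 EPM in Rap1-MNase, under the median window in all 6 libraries and under the 77.2 EPM of free MNase. The Rap1 difference, -2.94 ± 0.30, remained 1.60 below the median window. In Abf1-MNase the lower call of EFT1 (-1.01, limma adjusted p = 0.0039) was lost with distinct fragments (-0.58, adjusted p = 0.067) and with a 500-bp window (-0.36, adjusted p = 0.37), and over the intergenic part alone the difference was 0.33 (adjusted p = 0.44). Reb1-MNase was the exception at EFT1, with 116, 128 and 153 EPM (0.76 ± 0.30, limma adjusted p = 0.024, and 0.65 with an adjusted p of 0.066 without Reb1 replicate 3).

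The share of a window's ends in its densest 51 bp was lower in EFT2 than in EFT1 for Abf1-MNase (15.4% and 27.5%) and Reb1-MNase (19.4% and 40.8%), and higher for Rap1-MNase (23.6% and 20.8%). In EFT2 the most cut base in Abf1-MNase was 499 bp upstream in replicates 1 and 3 and 640 bp upstream in replicate 2. Rap1-MNase cut EFT2 most at 449, 640 and 452 bp upstream, and Reb1-MNase at 366, 362 and 362 bp upstream. In EFT1 the Reb1-MNase ends gathered at 182, 184 and 181 bp upstream, beside the Reb1 match at 198 to 192 bp. The level around this match was 54.3 EPM in Reb1-MNase, 8.35 in Abf1-MNase, 1.68 in Rap1-MNase and 3.79 in free MNase.

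HYP2, the eIF5A gene, was cleaved by all 3 fusions, mostly outside its own short intergenic stretch. It gave 2329, 1640 and 1703 EPM in Rap1-MNase, 1127, 866 and 942 EPM in Abf1-MNase and 719, 818 and 943 EPM in Reb1-MNase. Free MNase gave 126 EPM, higher than 97.1% of windows in that library. The 3 differences from free MNase were 3.88, 2.94 and 2.70 on the log2 scale, each with an SE of 0.30. Only 6.34%, 6.32% and 4.92% of the Rap1, Abf1 and Reb1 ends lay in the 130 bp between HYP2 and UTR5, against 17.2% of free MNase ends. Rap1-MNase cut most at 387 bp upstream in all 3 replicates and Abf1-MNase at 299, 298 and 299 bp, both inside the UTR5 gene. Reb1-MNase cut most at 868 bp upstream in all 3 replicates, past UTR5 and before ANP1. When the window was cut to the intergenic part, the Reb1 difference was 0.82 per base and did not pass (limma adjusted p = 0.064). The TEF2 and EFT2 windows are wholly intergenic, so their share is 100.0% by construction. In TEF1, EFB1, TEF4 and YEF3 between 86.9% and 98.8% of the TF-MNase ends were intergenic. There the intergenic part made up 56.1% to 74.2% of the bases and held 47.5% to 70.1% of free MNase ends. In EFT1 57.9% to 59.0% of the TF-MNase ends were intergenic, against 26.7% of the bases and 22.7% of free MNase ends.

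Digestion courses were followed in single libraries, so they carry no test. EPM is a share of the ends of a library, so a lower value need not mean fewer cuts. Of the fragments in the Reb1-MNase libraries, 13.8% were distinct at 10 s and 29.4% at 60 s, so their values rest largely on repeated fragments. Second-scale and minute-scale libraries of a TF carry different run codes, and a change between 60 s and 2.5 min cannot be told apart from the change of run code. TEF2 in Rap1-MNase went from 3927 EPM at 10 s to 2475 at 60 s, 1376 at 2.5 min and 264 at 20 min. TEF1 in Rap1-MNase went from 1372 EPM at 10 s to 660.2 at 60 s and 115 at 20 min. EFB1 and TEF4 moved the other way over the first minute, from 646 to 1096 EPM and from 543 to 984 EPM, and ended at 229 and 163 EPM at 20 min. EFT2 in Abf1-MNase was highest at the first time point, with 2368 EPM, and had 1278 EPM at 60 s and 143 at 20 min. In Rap1-MNase the same window went from 316 EPM at 10 s to 846 at 2.5 min and back to 276 at 20 min. YEF3 in Reb1-MNase went from 1293 EPM at 10 s to 840.5 at 60 s and 370.2 at 20 min, lower at 60 s than at 10 s, as EFT2 in Abf1-MNase and TEF2 in Rap1-MNase were. EFT1 was the reverse case in Rap1-MNase, where it had 6.51 EPM at 10 s and 90.9 at 20 min. The median window of the Rap1 series went from 19.5 to 122 EPM over the same course, so at 20 min the member windows lay between 0.742 and 2.26 times the median, against 0.333 to 201 times at 10 s.

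**Figure D5:**
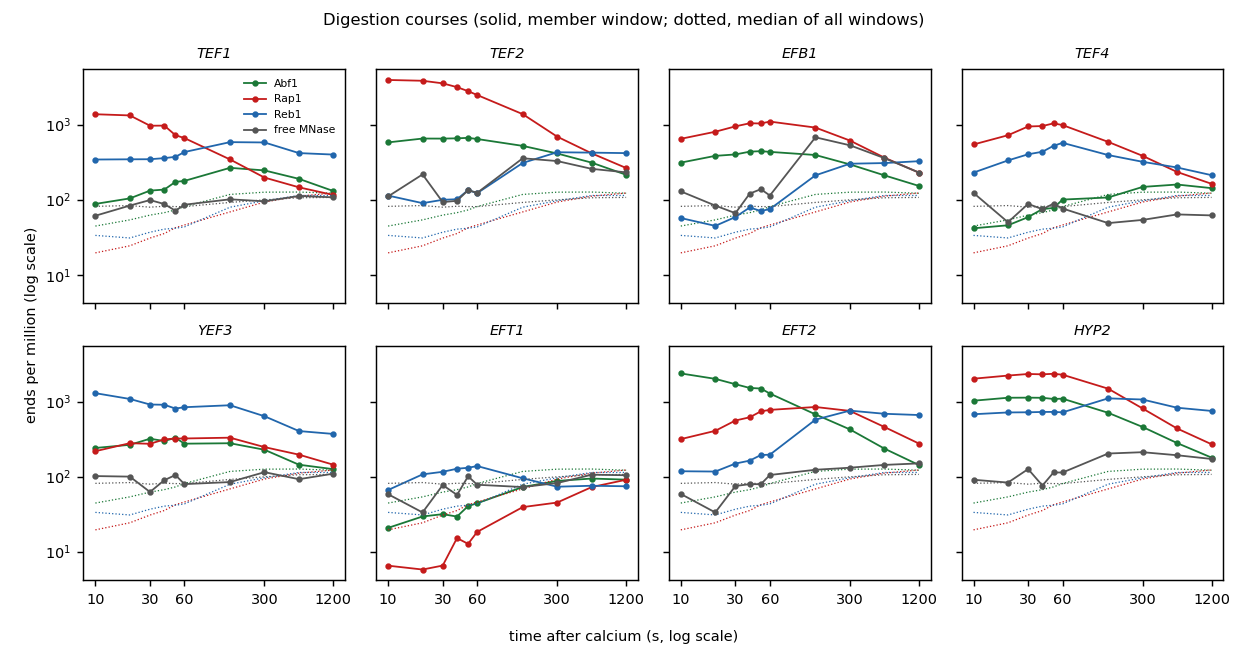
EPM in each member window (solid, log scale) and in the median window (dotted) against time after calcium in seconds (log scale), with 1 library per point and replicate 1 at 30 s. The Rap1-MNase line of TEF2 runs from 3927 EPM at the first time point to 264 at the last, and that of EFT1 from 6.51 to 90.9 EPM. The free MNase points at 20 s come from a library of only 59997 nuclear ends.

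The base cut most often stayed in place through the courses at several members. In Reb1-MNase the TEF1 maximum was at 292 bp upstream at every time point but 20 min, and in Rap1-MNase the HYP2 maximum was at 387 bp upstream from 20 s to 2.5 min. In free MNase at the second scale the position recurred only at TEF2, 164 bp upstream at both 50 s and 60 s. The free MNase library at 20 s held only 59997 nuclear ends, against 5015840 at 30 s, so its positions rest on few ends. From 2.5 min on, free MNase cut EFB1 most at 617 bp and TEF2 most at 540 bp upstream in all 4 libraries. EFB1 then reached 676 EPM and TEF2 356 EPM in free MNase at 2.5 min, above the 91.8 EPM of the median window. The EFB1 position differs from the 357 and 302 bp positions of Abf1- and Rap1-MNase.

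Before calcium was added, the levels were near the median window in 2 of the 4 strains. Each strain has 1 such library. Distinct fragments made up 14.8% of the fragments in free MNase, 16.5% in Rap1-MNase and 31.8% in Reb1-MNase, against 78.8% in Abf1-MNase. Apart from Abf1-MNase, the values thus rest largely on repeated fragments. Members had 57.1 to 104 EPM in free MNase and 80.2 to 112 EPM in Abf1-MNase. In Rap1-MNase HYP2 had 279.8 EPM and the others 70.7 to 184 EPM, with a median window of 90.7 EPM. In Reb1-MNase HYP2 had 353 EPM, with its most cut base at 868 bp upstream as after calcium, and EFT1 had 76.4 EPM under a median window of 107 EPM.

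The other fusions gave 1 library each per time point and are set beside the standard ones without a test. The short-linker libraries have the genotype label of the standard fusion and were told from it by their sample descriptions. The short-linker Abf1 library at 30 s carries the run code of Abf1 replicates 2 and 3. It gave 674 EPM at EFB1, above the standard range of 296 to 409 EPM, and 1146 EPM at EFT2, inside it. Its most cut bases were at 361 bp upstream in EFB1 and 274 bp in YEF3, both also found with the standard fusion. Reb1 with MNase at the N terminus carries another run code than the standard Reb1 libraries at 30 s, so fusion and run code cannot be told apart in that comparison. The short-linker Reb1 library at 30 s shares the run code of the N-terminal library. It differs in linker as well as in the end tagged, and its member values are not given here. The values that follow are from the N-terminal library at 30 s. It gave 183 EPM at EFT1, against 116 to 153 EPM in the standard fusion, and 28.8 EPM at EFB1, against 58.6 to 121 EPM. Its most cut base in EFT1 was at 149 bp upstream in place of 181 to 184 bp, and in TEF4 at 216 bp in place of 155 to 161 bp. In TEF1 and HYP2 it stayed at 292 and 868 bp. In the Abf1 MNase-X-ChIP library, made from crosslinked chromatin by immunoprecipitation, EFB1 gave 229 EPM (99.8th percentile of windows) and HYP2 152 EPM (98.7th), while EFT2, the highest member in Abf1 ChEC-seq, gave 101 EPM at the 82.8th percentile. The median window there had 85.1 EPM.

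Other genes of translation gave a background for the set. Over all tested windows, 18.1% were higher and 64.8% lower than free MNase in Rap1-MNase. The shares were 36.0% and 39.4% in Abf1-MNase and 27.2% and 52.4% in Reb1-MNase. Of 137 cytosolic ribosomal protein genes, 130 were higher and 4 lower in Rap1-MNase than in free MNase, with a median log2 difference of 3.63 against 3.41 for the 8 members and -1.34 for all windows. Of 27 initiation factor genes, 1 was higher and 22 were lower (median -1.56), and of 3 termination and recycling genes none was higher and 2 were lower (median -1.37). In Abf1-MNase 16 of the 27 initiation genes were higher (median 1.21). Of 20 elongation paralogues and modifying enzymes, 6 were higher and 14 lower in Rap1-MNase (median -1.75), 4 higher and 11 lower in Abf1-MNase, and 2 higher and 15 lower in Reb1-MNase. The levels of the members' paralogues are set beside them, with no test between genes. HEF3, the paralogue of YEF3, gave 148 ± 18.02 EPM (SD, n = 3) in Rap1-MNase and 46.8 ± 12.2 in Reb1-MNase, where YEF3 gave 750.2 ± 141. ANB1, the eIF5A gene of low oxygen, gave 881 ± 91.2 EPM in Abf1-MNase, 147 ± 32.5 in Rap1-MNase and 440 ± 78.9 in Reb1-MNase. HYP2 gave 978 ± 134, 1890 ± 381 and 827 ± 112 EPM in the same order, so the Abf1-MNase levels were alike. CAM1, the paralogue of TEF4, gave 184 ± 23.6 EPM in Rap1-MNase and 238 ± 27.0 in Abf1-MNase, where TEF4 gave 804 ± 121 and 59.1 ± 6.10.

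The extremes of the initiation and termination lists in Rap1-MNase were as follows. TIF1, which encodes eIF4A, had the highest initiation value, 1.04 ± 0.29 on the log2 scale against free MNase, and NIP1, an eIF3 subunit, had the lowest, -3.28 ± 0.28. SUP35, the release factor eRF3, stood at -0.41 ± 0.32, and RLI1, which recycles ribosomes, at -1.38 ± 0.30.

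The windows with a pattern most like the mean of the 8 members were those of PFK1, SUR1, YCR024C-B, RPS9A and MOT1, by Pearson correlation of centred log2(EPM + 1) over 55 ChEC-seq libraries. Their correlations were 0.974, 0.969, 0.967, 0.960 and 0.959, and the libraries share strains and run codes, so these describe likeness only. The members themselves did not share a single pattern. Over the same libraries the pairwise correlations of their log2(EPM + 1) ran from -0.87 (TEF2 with EFT1) to 0.9 (TEF2 with EFB1). RPS9A and MOT1 are neighbours with 1 shared upstream stretch, and their windows gave 1214 and 1220.1 EPM in Rap1-MNase at 30 s. PFK1, a glycolytic enzyme gene, gave 1006 EPM in Rap1-MNase, 508 in Abf1-MNase, 584 in Reb1-MNase and 54.2 in free MNase. Within the set, TEF2 and EFT1 stood at the ends of the Rap1-MNase range in every replicate.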

How the data were processed

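The deposited files hold mapped fragments (chromosome, start, end). The authors size-selected the DNA, read both ends over 25 cycles and aligned the reads with Novoalign 2.08.03 (build sacCer3/V64), keeping identical fragments, with no normalization. Both ends of each fragment were counted in the 1000 bp before each nuclear start codon of RefSeq R64 and divided by nuclear ends outside the rDNA. Windows with a mean under 10 EPM were left out (5967 tested). Contrasts at 30 s were fitted with limma 3.58.1 (R 4.3.3) on log2(EPM + 1) with an intensity trend over 10 libraries, two-sided, with Benjamini-Hochberg adjustment over all tested windows, and the procedure was tested on simulated data. Fold changes are on that scale, which understates low windows. Groups came from the labels. The members and lists were chosen with earlier results of these data known. The translation genes named from the lists are the paralogues HEF3, ANB1 and CAM1 and the extremes of the initiation and termination lists. No extremes are named from the list of elongation paralogues and modifying enzymes or from the ribosomal protein list. Same-numbered Abf1 and Rap1 replicates deviated together (correlations 0.449, 0.219 and 0.232) and share run codes. Same-numbered pairs with Reb1 carry different run codes and did not (-0.229 to 0.111). Pairs with unlike numbers but the same run code were also positive. These gave 0.24 and 0.136 between Abf1 and Rap1, and 0.058 to 0.154 for Reb1 with Abf1 or Rap1. The positive pairs among these thus share a run code rather than only a replicate number. Alternatives covered pseudocounts, filters, scaling, distinct fragments, window length, weights, blocks and left-out replicates. PCR reads have no molecular identifiers, so counts are not independent molecules.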

Additional observations from a re-analysis of the deposited data

How the results depend on the processing

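Of 968 recomputed member differences, 934 kept their direction and their side of the threshold, 17 newly passed, 11 no longer passed and 6 changed sign. None of the 7 higher calls and the lower call of EFT1 in Rap1-MNase against free MNase changed under the alternatives run. The 6 differences that changed sign were TEF4 in Abf1-MNase against free MNase with a 500-bp window (0.34) and over the intergenic part (0.16), EFT1 there over the intergenic part (0.33), EFB1 in Reb1-MNase against 5 free MNase libraries (-0.28), YEF3 between Rap1 and Abf1 after median scaling (1.01) and HYP2 between Abf1 and Reb1 after median scaling (-0.36). The cause was not tested.

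Counts over all windows moved by more than 1.5 times with median scaling, which by its construction sets the median window to 0. It gave 2216 higher and 1967 lower windows for Rap1 against free MNase, 1887 lower for Reb1, 2481 higher and 1815 lower for Rap1 against Abf1, 2116 higher and 2053 lower for Rap1 against Reb1, and 2492 lower for Abf1 against Reb1. Distinct fragments gave 1649 higher windows for Rap1 against free MNase, and the intergenic part, with fewer windows tested, gave 1044 lower for Abf1 and 1870 lower for Reb1. The 1 member lower in Abf1-MNase became 0 with distinct fragments, a 500-bp window or the intergenic part, and 2 with 5 free MNase libraries.

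Over the fits that each left out 1 replicate, members called higher ranged between 5 and 8 for Reb1 against free MNase (7 with every library) and between 4 and 6 for Rap1 against Reb1 (6 with every library), and members called lower between 1 and 2 for Abf1 against free MNase (1 with every library). TEF2 in Reb1-MNase no longer passed without Reb1 replicate 2 (0.74), without replicate 3 (0.56) or with a 500-bp window (0.54), and EFT2 between Rap1 and Reb1 no longer passed without Rap1 replicate 1 (0.52). With the replicate block, 967 windows were higher in Rap1 than in Abf1, and 1027 in a fit of those 6 libraries alone that was added after the data were seen. The replicate block changed no member call. Levels of distinct fragments were 0.58 times the given value for TEF1, 0.66 times for TEF4 and 1.76 times for EFT1 in Rap1-MNase.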
